A study of Homo sapiens with 28 samples.

Results

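The exons described here are cassette exons that were almost always skipped in control leukemia cells. A cassette exon is an internal exon that is either kept between its neighbours or left out of the mature mRNA. Each row of the deposited splicing table compares the reads over one exon junction with those over the competing junctions, and its percent spliced-in value was turned into inclusion, the percentage of these reads that support keeping the exon. Rows annotated exactly as cassette exons were kept where at least 8 of the 12 control libraries had a value and where the mean inclusion over those controls was 10% or less. This rule kept 3774 of 30769 cassette exon rows, which is 15.9% of the 23731 rows with enough control values, from a table of 100814 rows. The 3774 rows lay in 2441 junction clusters and 2166 genes. A row holds one junction of an exon, so one exon can give several rows: 1606 rows measured the junction upstream of the exon, 1890 the downstream one and 278 shared no end with the skipping junction. The rows held 3310 distinct junctions that keep an exon. For 464 pairs of such a junction with a skipping junction, the same pair was listed again. Each junction of the pair was then the one compared in a separate row, so these rows are repeated views of the same pair. The control values chose these rows, and their low control inclusion is therefore a description and not a result.

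All 28 libraries were RNA-seq of human acute myeloid leukemia cell lines carrying lentiviral short hairpins and selected with puromycin. MOLM13 cells carry the MLL-AF9 fusion and MV4;11 cells the MLL-AF4 fusion. The hairpins were shMBNL1-64 and shMBNL1-65 against MBNL1, and shNT, a non-targeting hairpin carried by every control. In MOLM13, hairpin 64 was compared with shNT in a first set selected for 72 h (3 libraries each) and again at day 12 (3 each, sequenced on a later instrument), while hairpin 65 (4 libraries) was compared with a second set of 3 shNT libraries. In MV4;11, hairpin 64 and hairpin 65 (3 libraries each) were compared with the same 3 shNT libraries, so these comparisons share their controls. Each hairpin in each line is a bulk culture, and a difference in harvest day between sets cannot be told apart from other differences between them. Beyond the biological triplicates named for day 12, nothing states that libraries came from separate cultures, so the p-values measure the spread between these libraries.

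MBNL1 is an RNA-binding protein that controls exon choice during development and is sequestered by expanded CUG repeats in myotonic dystrophy. It recognises short RNA motifs of a GC step flanked by pyrimidines, often in clusters. In general, binding within or upstream of an exon is associated with skipping, and binding downstream with inclusion, so exons that controls skip are candidates for exons that MBNL1 keeps out. The comparisons here ask what these exons do when MBNL1 is lowered in leukemia lines with MLL fusions.

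Sequences are given for 7 of the exons with the largest differences under hairpin 64, because they are the clearest view of what these nearly silent exons look like at their 3′ splice site. Each line gives the last 120 bases of the upstream intron followed by the exon, 5′ to 3′ on the transcribed strand of GRCh37, and capitals mark each match to a 4-base motif, namely CGCC, its variant with a final T (CGCT), or the same motifs with an initial T (TGCC, and with both changes TGCT), with overlapping matches merged. The NUMB line covers chr14:73745989-73746252 on the minus strand and ends with the 144-base exon, which holds 7 of its 8 motifs. The EXOC1 line covers chr4:56754934-56755098 on the plus strand with a 45-base exon. The ACTN4 line covers chr19:39201796-39202001 on the plus strand with an 86-base exon. The TRERF1 line covers chr6:42231127-42231426 on the minus strand and stops after 180 bases of the 309-base exon. The ZFYVE21 line covers chr14:104196010-104196183 on the plus strand with a 54-base exon, and 8 of its 10 motifs are in the intron. The LGALS9 line covers chr17:25970431-25970646 on the plus strand with a 96-base exon, and 10 of its 12 motifs are in the intron. The CADM1 line covers chr11:115069126-115069278 on the minus strand with a 33-base exon.
NUMB: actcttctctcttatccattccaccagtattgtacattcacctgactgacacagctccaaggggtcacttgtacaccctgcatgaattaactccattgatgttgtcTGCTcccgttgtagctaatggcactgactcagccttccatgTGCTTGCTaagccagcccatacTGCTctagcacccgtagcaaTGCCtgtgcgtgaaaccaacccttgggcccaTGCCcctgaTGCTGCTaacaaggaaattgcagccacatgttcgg
EXOC1: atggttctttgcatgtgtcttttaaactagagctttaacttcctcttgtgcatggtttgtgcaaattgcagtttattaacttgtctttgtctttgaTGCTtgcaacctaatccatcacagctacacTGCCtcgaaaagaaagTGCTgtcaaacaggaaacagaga
ACTN4: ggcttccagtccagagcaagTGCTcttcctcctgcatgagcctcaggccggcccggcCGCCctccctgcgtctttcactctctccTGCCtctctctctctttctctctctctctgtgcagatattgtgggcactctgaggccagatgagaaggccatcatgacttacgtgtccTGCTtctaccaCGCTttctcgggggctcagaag
TRERF1: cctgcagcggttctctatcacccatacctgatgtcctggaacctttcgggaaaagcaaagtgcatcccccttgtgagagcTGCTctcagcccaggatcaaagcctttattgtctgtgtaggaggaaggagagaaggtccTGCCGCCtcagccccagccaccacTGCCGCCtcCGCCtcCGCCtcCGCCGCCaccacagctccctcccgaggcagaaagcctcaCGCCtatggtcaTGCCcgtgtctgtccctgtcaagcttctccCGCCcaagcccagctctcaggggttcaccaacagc
ZFYVE21: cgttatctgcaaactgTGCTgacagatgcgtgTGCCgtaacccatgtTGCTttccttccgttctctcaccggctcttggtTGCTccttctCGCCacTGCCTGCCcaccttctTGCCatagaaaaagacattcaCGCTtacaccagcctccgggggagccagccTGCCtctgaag
LGALS9: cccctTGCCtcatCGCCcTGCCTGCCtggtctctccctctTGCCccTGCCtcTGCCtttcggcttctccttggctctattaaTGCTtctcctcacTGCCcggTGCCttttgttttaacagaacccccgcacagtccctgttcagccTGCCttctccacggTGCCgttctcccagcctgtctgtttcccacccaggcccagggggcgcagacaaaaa
CADM1: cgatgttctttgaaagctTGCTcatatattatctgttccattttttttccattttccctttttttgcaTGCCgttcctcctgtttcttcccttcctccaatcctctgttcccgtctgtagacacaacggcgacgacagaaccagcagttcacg

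MBNL1 itself was checked first as the target. Its level was 22.4 ± 5.34 RPKM in the shNT libraries of the first set and 3.23 ± 0.493 with hairpin 64 (SD, n = 3 each), 22.4 ± 3.53 and 3.72 ± 0.236 in MV4;11, and 26.4 ± 0.657 and 4.40 ± 0.261 at day 12. Hairpin 65 left more transcript, at 11.9 ± 1.07 RPKM in MV4;11 and 12.7 ± 3.13 in MOLM13 (n = 4), against 18.9 ± 1.34 in the second shNT set. In bulk RNA, fewer cells of a type and less RNA per cell cannot be told apart. All 9 myeloid marker genes were measured, with LYZ at a median of 1381 RPKM and FLT3 at 186 RPKM, and 9 of the 10 markers of other cell types could be matched. Their summed level was between 1.76 and 12.7 RPKM, with KRT18, a keratin, at 1.14 to 10.6 RPKM, COL1A1 reaching 2.76 and KRT8 1.51 RPKM, while the other 6 stayed under 1 RPKM in every library. The summed level of the 9 myeloid genes, of which LYZ was the highest (531 to 3912 RPKM), differed between knockdown and control libraries. With hairpin 64 it was 4118 to 4262 RPKM against 1558 to 1881 in the controls of the first set, 4031 to 4300 against 1099 to 1253 at day 12, and 1723 to 1859 against 2148 to 3131 in MV4;11, the opposite direction. With hairpin 65 it was 1096 to 1148 RPKM in MV4;11 and 1061 to 1201 in MOLM13, where the second shNT set spanned 1107 to 3407. Its part in the splicing differences was not tested.

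In the 12 control libraries the exons were low but seldom absent. The median of their mean control inclusion was 4.12%, and the middle 50% of rows lay between 1.77% and 6.83%. Mean inclusion was 5% or less in 2221 rows and 1% or less in 620, and 166 rows were at 0 in every control with a value. At the other end, 219 rows had at least 1 control library above 25%. Around the limit of 10%, the last rows kept were in GRB10 and CMC1, at 9.997% each, and the first left out were in PIGX at 10.00% and MORC3 at 10.00%. The table holds fractions without read numbers, so the depth behind a single value is unknown. Between 3406 and 3768 of the 3774 rows had a value in a given library, and 3037 had one in every library.

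The set as a whole stayed low after knockdown, while a few members left it. Over the 3037 rows measured everywhere, mean inclusion was 4.48% ± 0.880 in the first shNT set and 4.91% ± 0.734 with hairpin 64 (SD, n = 3), a difference smaller than the spread. At day 12 it was 4.46% ± 0.0780 and 4.98% ± 0.0104, and in MV4;11 it was 3.86% ± 0.20 with shNT, 4.27% ± 0.103 with hairpin 64 and 4.06% ± 0.175 with hairpin 65. The number of members above 50% inclusion in a library was 11 to 13 with hairpin 64 in the first set, 8 to 11 in MV4;11 and 13 to 17 at day 12. With hairpin 65 it was 0 to 2, which overlapped the controls. In the controls it was 0 or 1, but the rule that chose the members kept this count low. Both first-set libraries numbered 3 stood apart, with 116 (shNT) and 169 (hairpin 64) members above 20%, against 19 to 28 and 77 to 85 in the other libraries of those groups, and they had the fewest measured members of their groups, 3519 and 3406.

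A row was tested where both groups had values in over 50% of their libraries, and it was called where the unadjusted limma p was at most 0.01 with a gap of over 10 percentage points between the group means. With hairpin 64 in the first set, 29 of 3625 tested members, in 20 genes, were called higher, or 0.8%, against 0.841% of all cassette exon rows. With hairpin 65 in MOLM13 the count was 13 of 3678, in 11 genes, against 0.605% of all cassette rows. In MV4;11, 33 of 3696 members in 21 genes were called higher with hairpin 64 (0.944% of all cassette rows) and 14 of 3701 in 10 genes with hairpin 65 (0.535% of all cassette rows). At day 12, 48 of 3754 members in 33 genes were called higher, beside 1.57% of all cassette rows. Because the control values chose the members, nothing is read from these counts against the background. Members were also chosen on the controls of the other groups alone, with at least 6 values there. The counts were then 27, 11, 29, 11 and 43 in the same order. At an adjusted p of 0.05 or less and the same size of difference, 10, 0, 17, 0 and 30 members were called higher, beside 0.269%, 0.0265%, 0.278%, 0.0188% and 0.782% of all events in either direction, and 241 and 204 members had an unadjusted p under 0.05 with hairpin 65 in MOLM13 and MV4;11.

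Some of these counts rested on single libraries. The first-set count of 29 was 14 without shNT replicate 1 and 16 without shNT replicate 2, and it was 29 again without both libraries numbered 3, with 20 of the members shared. The count of 13 with hairpin 65 in MOLM13 was 8 without shNT library b and 7 without shNT library c of the second set.

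**Figure D1:**
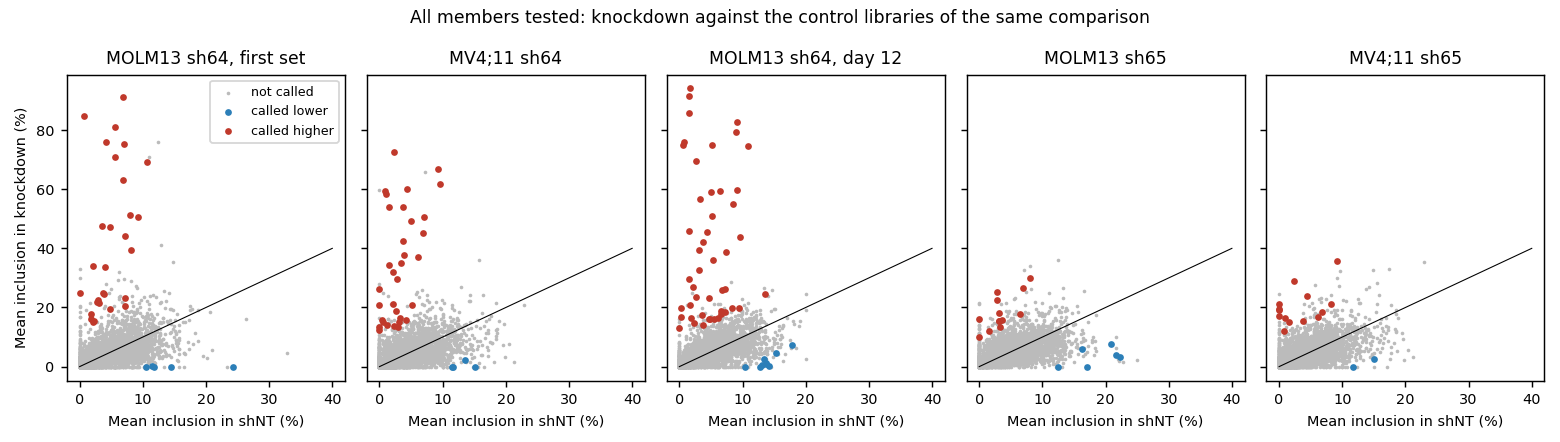
Inclusion of every tested member in percent, control mean on the horizontal axis against knockdown mean on the vertical axis, with 1 panel for each of the 5 comparisons and called members marked. Most points lie near the diagonal below 10%. With hairpin 64, 8, 8 and 14 members rise by more than 50 points in the first set, MV4;11 and day 12, against 0 with hairpin 65. Low control inclusion, which chose the members, leaves room for such rises, so these counts are a description.

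Rises above 50 points were seen in 8 members with hairpin 64 in the first set, 8 in MV4;11 and 14 at day 12, and in 0 with hairpin 65 in either line. The largest called rises were 84.5, 70.1 and 92.4 points with hairpin 64, in the same order, and 22.6 and 26.8 points with hairpin 65 in MOLM13 and MV4;11. The median difference over all tested members was 0 points in 4 of the 5 comparisons and 0.0561 points with hairpin 65 in MOLM13. Across the 5 comparisons, 71 members in 53 genes were called higher at least once, 33 in 21 genes at least 2 times, and 2 members, in NUMB and ACTN4, in all 5. In the 3 comparisons of hairpin 64, 21 members in 12 genes were called higher each time. For each of these 21, no hairpin 64 library overlapped the control libraries of its set. The calls chose these rows and the control values chose the members, so this lack of overlap is a description and not separate evidence. The counts of repeated calls have no count over all cassette exon rows beside them, and nothing is read from their size. Of the member rows, 3703 were not called higher in any comparison.

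Among the 12 genes, 2 act in membrane traffic and had some of the largest differences. EXOC1 encodes a subunit of the exocyst, the complex that tethers secretory vesicles to the plasma membrane. Its exon lies at chr4:56755054-56755098 (GRCh37, plus strand), overlaps coding sequence and was measured by 3 member rows. The row with the largest difference was a downstream-junction row. In the 12 controls it had inclusion of 0% at the lowest, 3.32% at the median and 17.3% at the highest. With hairpin 64 it was 89.8%, 92.7% and 91.3% in the first set, 71.8%, 78.0% and 67.5% in MV4;11, and 80.5%, 86.7% and 90.6% at day 12. In that row the exon thus went from skipped to the major form in all 9 libraries with hairpin 64, far from any control. In MV4;11 the upstream-junction row had a mean of 54% with hairpin 64 and a lowest value of 46.8%. The other downstream-junction row had a mean of 59.3% there. In the row with the largest difference, the rises were 84.5 ± 5.12 points (SE, adjusted p = 0.0223), 70.1 ± 3.10 points (adjusted p = 0.0106) and 84.4 ± 3.01 points (adjusted p = 0.00247). With hairpin 65 the 4 MOLM13 libraries held 28.7%, 10.5%, 17.8% and 18.4%, all above their own controls and 3 of them above all 12, and this difference was not called (14.1 ± 4.46 points). In MV4;11 hairpin 65 gave 40%, 23.4% and 24.0%, a called rise of 26.8 ± 5.31 points whose adjusted p was 0.440, and the call was lost when any of the shNT replicates or hairpin 65 replicate 2 or 3 was left out (unadjusted limma p of 0.0107 to 0.0244).

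ZFYVE21 encodes a FYVE-domain zinc finger protein of endosomes and focal adhesions. Its 54-base coding exon at chr14:104196130-104196183 (plus strand) was measured by 3 member rows, and the row with the largest difference had control values from 1.02% to 15.5% with a median of 5.67%. With hairpin 64, inclusion was 55.2%, 54.0% and 32.6% in the first set, 52.1%, 48.2% and 47.7% in MV4;11, and 62.0%, 60.2% and 56.5% at day 12. All 9 values were above all 12 controls, and the lowest was the first-set library numbered 3. The rises were 42.4 ± 6.99, 44.4 ± 1.87 and 50.5 ± 3.68 points, with adjusted p of 0.202, 0.00889 and 0.0170. In the first set, replicate numbers were taken to pair the libraries. The limma call there was lost with the replicate as a block (unadjusted p = 0.0168 in the limma fit). It was also lost when any 1 library other than hairpin 64 replicate 3 was left out (unadjusted limma p of 0.0103 to 0.0132). Hairpin 65 gave 12.8% to 33.6% in MOLM13 and 9.28% to 22.3% in MV4;11, with differences of 17.4 ± 5.39 and 11.8 ± 3.92 points that were not called. The other ZFYVE21 rows were lower with hairpin 64. In the first set, MV4;11 and day 12, the other downstream-junction row had means of 33.9%, 32.2% and 42.1%. The upstream-junction row had means of 22.5%, 29.6% and 32.8% in the same order.

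NUMB, an endocytic adaptor that restrains Notch signaling, was one of the genes with a member called in all 5 comparisons. Its 144-base exon, printed above, lies at chr14:73745989-73746132 on the minus strand in coding sequence and was measured from both sides. In the 12 controls the upstream-junction row ranged from 0.870% to 15.2% with a median of 8.94%. Hairpin 64 gave 73.8%, 73.5% and 60.8% in the first set, 68.9%, 65.8% and 65.4% in MV4;11, and 82.5%, 81.6% and 84.0% at day 12. Hairpin 65 gave 39.0%, 29.6%, 27.5% and 24.0% in MOLM13 and 40.7%, 32.9% and 33.3% in MV4;11. All 16 knockdown libraries were above all 12 controls, with the hairpin 65 values between the controls and hairpin 64. The rises with hairpin 64 were 58.7 ± 4.6, 57.5 ± 1.57 and 73.5 ± 1.07 points (adjusted p of 0.0402, 0.00370 and 0.000191). With hairpin 65 they were 22.0 ± 4.63 points in MOLM13 and 26.4 ± 2.67 points in MV4;11, with adjusted p of 0.333 and 0.177, and the MOLM13 call was lost without shNT library a or b or without hairpin 65 replicate 2 or 3 (unadjusted limma p of 0.0104 to 0.0126).

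ACTN4 encodes alpha-actinin 4, which crosslinks actin filaments, and was the other gene called in all 5 comparisons. Its 86-base coding exon at chr19:39201916-39202001 (plus strand) had control inclusion from 2.86% to 9.54% with a median of 7.27% in the row with the larger difference. Hairpin 64 gave 77.0%, 74.4% and 74.5% in the first set, 57.9%, 52.5% and 51.8% in MV4;11, and 77.2%, 79.5% and 81.7% at day 12. Hairpin 65 gave 31.4%, 24.1%, 21.7% and 29.0% in MOLM13 and 14.6%, 18.2% and 13.6% in MV4;11. The groups did not overlap in any of the 5 comparisons, and MV4;11 lay below MOLM13 with either hairpin. The rises were 68.3 ± 0.90, 50.3 ± 1.86 and 70.5 ± 1.30 points with hairpin 64 (adjusted p of 0.000686, 0.00618 and 0.000433). With hairpin 65 they were 19.6 ± 3.01 points in MOLM13 and 11.7 ± 1.36 points in MV4;11 (adjusted p of 0.199 and 0.219). The other ACTN4 row, also of the downstream junction, was lower with hairpin 64. Its means were 47.5% in the first set, 34.2% in MV4;11 and 56.7% at day 12.

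**Figure D2:**
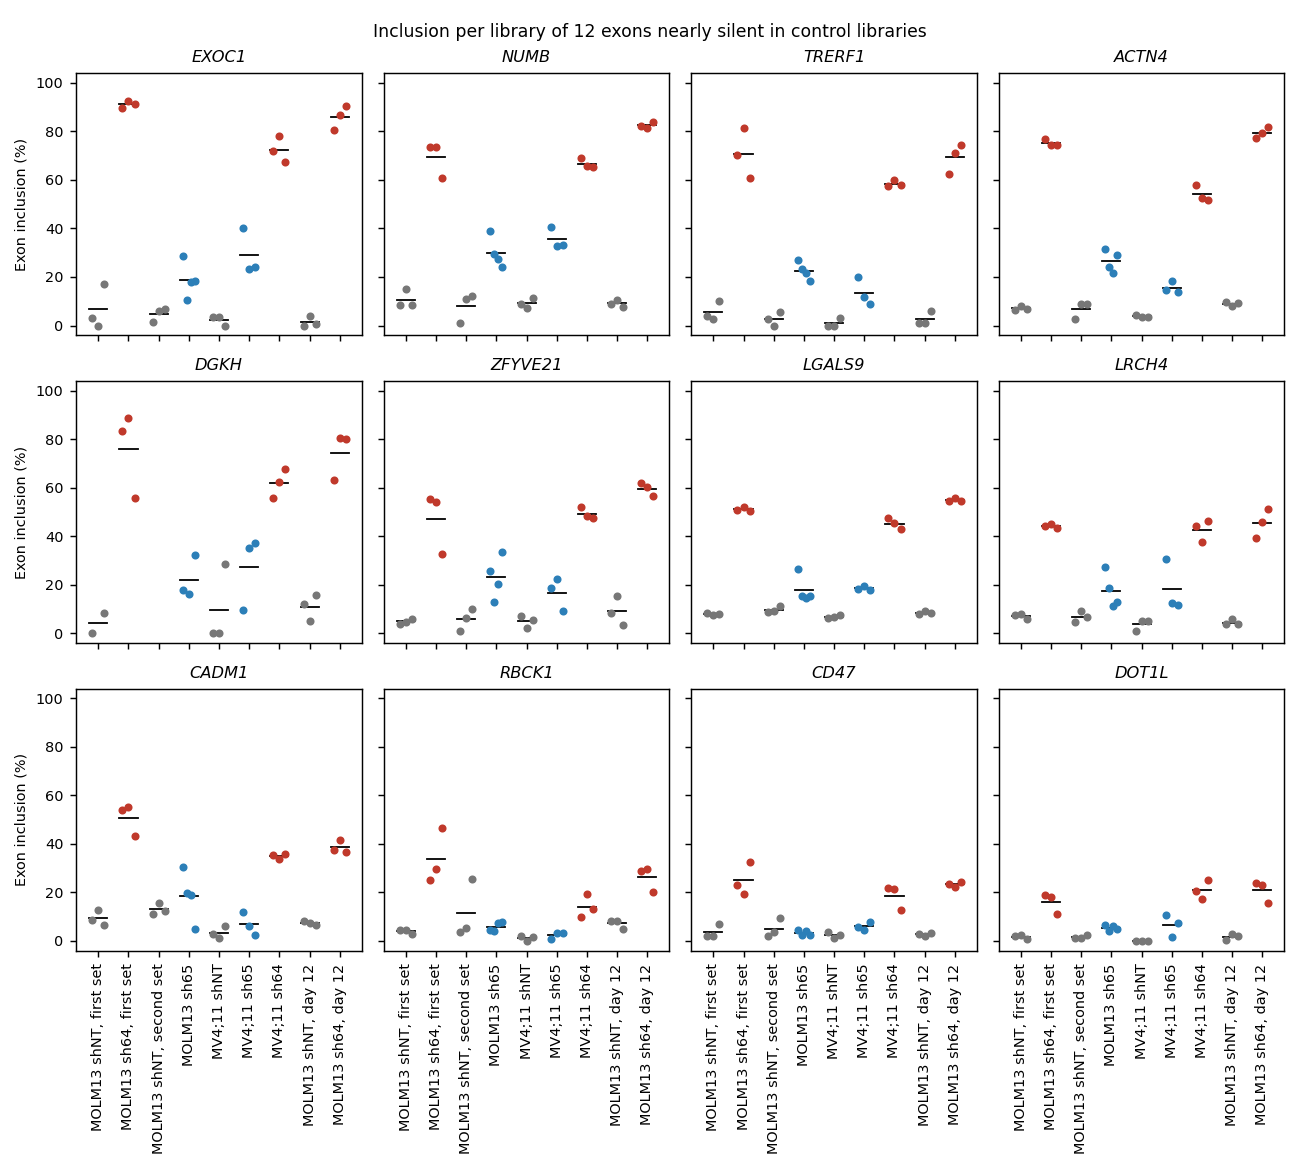
Inclusion in percent in each of the 28 libraries for the 12 genes whose exon was called higher in all 3 comparisons of hairpin 64, 1 panel per gene, with libraries grouped along the horizontal axis by line, hairpin and set. Each point is 1 library (grey for shNT, blue for hairpin 65, red for hairpin 64) and each line a group mean. The hairpin 64 points lie above the control points of the same set in every panel. For NUMB, ACTN4, LGALS9 and LRCH4, every hairpin 65 point lies above all controls and below all hairpin 64 points. The 12 genes were chosen on their hairpin 64 calls, so the place of the hairpin 64 points is a description.

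TRERF1, a zinc finger transcriptional regulator, and DOT1L, the histone H3 lysine 79 methyltransferase that MLL fusions recruit, were the nuclear regulators in the group. The TRERF1 exon of 309 bases, at chr6:42230998-42231306 on the minus strand, was between 0% and 10.1% in the controls with a median of 2.72%. Hairpin 64 gave 70.4%, 81.3% and 60.6% in the first set, 57.4%, 60% and 58.0% in MV4;11, and 62.5%, 71.3% and 74.6% at day 12. Hairpin 65 gave 18.5% to 26.8% in MOLM13 and 8.93% to 20% in MV4;11, so that all 4 MOLM13 values and 2 of the 3 MV4;11 values lay above every control. The TRERF1 rises with hairpin 64 were 65.1 ± 6.08, 57.4 ± 1.27 and 66.9 ± 3.76 points (adjusted p of 0.0613, 0.00206 and 0.00828), and with hairpin 65 in MOLM13 the rise was 19.8 ± 2.36 points (adjusted p = 0.135).

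The DOT1L exon of 646 bases at chr19:2227736-2228381 (plus strand) was at most 2.79% in the controls for its upstream junction and at 0% in all 3 MV4;11 controls. Hairpin 64 gave 19.1%, 18.1% and 11.0% in the first set, 20.5%, 17.2% and 25.2% in MV4;11, and 23.9%, 23.3% and 15.5% at day 12. For this junction most reads still supported skipping, but no hairpin 64 library reached down to a control. The rises were 14.3 ± 2.47, 21.0 ± 2.19 and 19.2 ± 2.66 points (adjusted p of 0.221, 0.0790 and 0.0818), and the first-set call was lost without any 1 library except hairpin 64 replicate 3 (unadjusted limma p of 0.0112 to 0.0157). Hairpin 65 left DOT1L at 4.09% to 6.62% in MOLM13 and 1.55% to 10.7% in MV4;11, and neither difference was called. The downstream-junction row of the exon was higher with hairpin 64, with means of 27.9% in the first set, 26.2% in MV4;11 and 39.6% at day 12. That row was called in MV4;11 and at day 12 but not in the first set.

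LGALS9, CADM1 and CD47 encode cell surface or secreted proteins: galectin-9, a glycan-binding lectin, an immunoglobulin-like adhesion molecule, and the receptor that signals to phagocytes to spare the cell. The LGALS9 exon of 96 bases, at chr17:25970551-25970646 (plus strand), was measured from both sides. Its upstream junction was 6.38% to 11.2% in the controls, 51.0%, 52.2% and 50.4% with hairpin 64 in the first set, 47.4%, 45.4% and 42.8% in MV4;11, and 54.5%, 55.9% and 54.6% at day 12. Hairpin 65 gave 17.9% to 19.6% in MV4;11 and 14.3% to 26.6% in MOLM13, all above every control. The LGALS9 rises were 43.2 ± 0.577, 38.4 ± 1.31 and 46.4 ± 0.498 points with hairpin 64 (adjusted p of 0.000686, 0.00534 and 0.000147) and 11.7 ± 0.621 points with hairpin 65 in MV4;11 (adjusted p = 0.0559), while the MOLM13 difference of 8.31 ± 3.33 points was not called.

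The CADM1 exon of 33 bases, at chr11:115069126-115069158 on the minus strand, was 1.16% to 15.8% in the controls. It reached 54.0%, 55.1% and 43.2% with hairpin 64 in the first set, 35.5%, 33.6% and 36.0% in MV4;11, and 37.7%, 41.5% and 36.7% at day 12. The 9 values lay above all 12 controls, and the rises were 41.5 ± 3.99, 31.6 ± 1.60 and 31.2 ± 1.45 points (adjusted p of 0.0645, 0.0141 and 0.00502). With hairpin 65 the CADM1 values overlapped those of the controls in both lines, at 4.85% to 30.3% in MOLM13 and 2.56% to 11.9% in MV4;11.

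CD47 had 2 adjacent exons among the members, of 33 and 25 bases, at chr3:107768466-107768498 and chr3:107769425-107769449 on the minus strand. The upstream junction of the 25-base exon was 1.36% to 9.65% in the controls, and with hairpin 64 it was 23.2%, 19.5% and 32.5% in the first set, 21.9%, 21.3% and 12.8% in MV4;11, and 23.6%, 22.4% and 24.3% at day 12. Its rises were 21.4 ± 3.95, 16.1 ± 2.89 and 20.8 ± 0.664 points, of which the last had an adjusted p under 0.05, at 0.00180. The first-set CD47 call was lost without any 1 of the shNT libraries or hairpin 64 replicate 1, and the MV4;11 call without any 1 shNT library or hairpin 64 replicate 1 or 2 (unadjusted limma p of 0.0115 to 0.0190). The CD47 row of the 33-base exon rose by 19.2 ± 3.05, 15.5 ± 1.26 and 19.6 ± 1.81 points in the same comparisons. Hairpin 65 gave 2.49% to 4.36% for the upstream CD47 junction in MOLM13, within the controls, and 4.44% to 7.98% in MV4;11, above its own controls of 1.36% to 3.76% (3.56 ± 1.18 points, with an unadjusted p of 0.0349 in the limma fit). The other CD47 rows also did not overlap with their controls in MV4;11 with hairpin 65, with differences of 4.65 ± 1.02 and 3.69 ± 1.23 points that were under the limit.

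DGKH, LRCH4 and RBCK1 completed the 12. DGKH encodes diacylglycerol kinase eta, a lipid signaling enzyme, and its 131-base coding exon at chr13:42795400-42795530 (plus strand) was the least well measured, with values in 8 of the 12 controls, from 0% to 28.6%. Hairpin 64 gave 83.3%, 88.9% and 55.6% in the first set, 55.6%, 62.5% and 67.7% in MV4;11, and 63.2%, 80.4% and 80.0% at day 12. All 9 DGKH values were above the 8 controls, and the rises were 71.8 ± 12.8, 52.4 ± 9.68 and 63.6 ± 6.16 points, the first from 2 control libraries. Only the day 12 rise had an adjusted p under 0.05, at 0.0358. The DGKH call of the first set was lost with the replicate as a block (unadjusted p = 0.0859 in the limma fit) and without hairpin 64 replicate 1 or 2, and that of MV4;11 without shNT replicate 1 or 2 or any 1 hairpin 64 library. The DGKH row was also the one of the 12 that no longer met the rule when the controls of the first set, of MV4;11 or of day 12 were set aside. At least 6 values were required of the remaining controls. Of its 8 control values, 3 were in MV4;11 and 3 at day 12, so without either group it fell short of that number.

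LRCH4, a leucine-rich repeat protein with a calponin homology domain, had a member row from 0.948% to 9.09% in the controls. Hairpin 64 gave 44.4%, 45.0% and 43.6% in the first set, 44.3%, 37.5% and 46.1% in MV4;11, and 39.4%, 45.9% and 51.1% at day 12. The LRCH4 rises were 37.2 ± 0.650, 38.9 ± 2.83 and 41.1 ± 3.27 points (adjusted p of 0.00155, 0.0322 and 0.0213), and the hairpin 65 values of 11.3% to 27.3% in MOLM13 and 11.5% to 30.6% in MV4;11 also lay above all 12 controls, without a call. RBCK1, a subunit of the linear ubiquitin chain assembly complex, was the least stable of the group. Its row was at 25%, 29.6% and 46.5% with hairpin 64 in the first set, 9.79%, 19.3% and 13.0% in MV4;11, and 29.0%, 29.5% and 20% at day 12, while 1 control of the second set, library c, was at 25.7%. The RBCK1 rises of 29.7 ± 6.23, 12.8 ± 2.72 and 18.9 ± 3.10 points had adjusted p of 0.307, 0.314 and 0.117, the first-set call was lost with the replicate as a block (unadjusted p = 0.0296 in the limma fit), and each of the 3 calls was lost when single libraries of its own groups were left out, namely any control of its set, hairpin 64 replicate 2 in the first set, replicate 3 in MV4;11, and replicate 1 or 2 at day 12. The exons behind the LRCH4 and RBCK1 rows could not be placed on a single annotated exon.

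Other members were called in part of the comparisons. SSBP3, a cofactor that stabilises LIM-domain transcription complexes, rose by 20.5 ± 3.61 points in the first set and 30.7 ± 2.27 points at day 12. In MV4;11 its 3 hairpin 64 values of 11.7%, 29.5% and 6.06% did not give a call. AP1S2, the sigma subunit of a clathrin adaptor, rose by 45.9 ± 2.13 points at day 12, from 3.51% to 6.83% up to 48.9% to 55.1%, and by 12.0 ± 1.46 points in MV4;11. WIPI2, which binds phosphoinositides at forming autophagosomes, rose by 16.0 ± 3.35 points in the first set and 10.9 ± 0.799 points at day 12. ANKLE2, a nuclear envelope protein, rose by 14.5 ± 1.90 points in the first set and 15.8 ± 1.31 points in MV4;11, but was at 14.9%, 4.38% and 12.9% at day 12, where 1 library lay within its controls. The TOP3B row, in a type IA topoisomerase gene, was called with hairpin 64 in the first set (13.4 ± 2.35 points) and with hairpin 65 in MV4;11 (11.2 ± 1.84 points). DDX60L and CA5B were called with hairpin 65 in MOLM13, by 15.0 ± 1.80 and 11.2 ± 1.97 points, and with hairpin 64 in MV4;11 (10.4 ± 1.90 points) and at day 12 (10.4 ± 1.12 points), respectively.

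The largest single rise was in FGFR1, a fibroblast growth factor receptor, whose 267-base coding exon was measured from both sides. Its upstream junction had day 12 control values of 0%, 5.00% and 0%, and hairpin 64 values of 93.3%, 88.9% and 100%, a rise of 92.4 ± 3.44 points (adjusted p = 0.00268). In the first set the row had values in 2 libraries of each group, 87.0% and 64.7% against 4.76% and 20%, and in MV4;11 the hairpin 64 values were 63.6%, 83.3% and 50% against 0% and 14.3% in the controls with a value. FGFR1 inclusion was high in each hairpin 64 library measured, but the gene was expressed at a low level, 1.34 RPKM in the day 12 controls and 0.542 RPKM with hairpin 64. MYB, a hematopoietic transcription factor, rose by 10.4 ± 0.739 points at day 12 (adjusted p = 0.0155), and TCF12, a basic helix-loop-helix factor, and KLC1, a kinesin light chain, by 11.2 ± 1.66 and 11.5 ± 2.41 points, with adjusted p of 0.0936 and 0.190.

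Calls towards lower inclusion were limited by the rule, since members with a low control mean have little room to fall by over 10 points, and nothing is read from their number. In the 5 comparisons, 5, 6, 4, 2 and 9 members were called lower, beside 1.6%, 0.644%, 1.63%, 0.572% and 2.17% of all cassette exon rows, and 23 members in 22 genes were called lower at least once. SNX24, a sorting nexin, was called lower in the first set by 24.3 ± 1.86 points, from 2 values per group (0% and 0% against 26.3% and 22.2%), while the other 7 shNT values were 0% to 10.7%. ATXN1, SVIL and ENDOV were called lower with hairpin 65 in MOLM13, by 19.1 ± 4.22, 17.7 ± 2.94 and 17.1 ± 1.18 points. The second shNT set was high for all 3 genes: its mean was 22.2% for ATXN1, against 3.67% to 6.74% in the other shNT groups, 21.6% for SVIL, against 0% to 8.0%, and 17.1% for ENDOV, against 0% to 9.05%. These 4 calls had adjusted p between 0.1425 and 0.3583. The counts turned on single libraries. The first-set count of 5 was 13 and 8 without shNT replicates 1 and 2, and 1, 1 and 2 without each hairpin 64 replicate. With hairpin 65 in MOLM13 the count of 6 was 10 without shNT library a and 2, 3 and 2 without hairpin 65 replicates 2, 3 and 4. In MV4;11 the count of 4 with hairpin 64 was 8 and 13 without shNT replicates 2 and 3, and the count of 2 with hairpin 65 was 5 and 9 without shNT replicates 1 and 3 and 1, 1 and 0 without each hairpin 65 replicate. The day 12 count of 9 was 5 without hairpin 64 replicate 1 and 18 without shNT replicate 2.

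Knockdown libraries took no part in the choice of members. Most members stayed low in them, however, which limits how far one can be lower, so the numbers of higher and lower calls are not set against each other or read against the background. In MV4;11, where both hairpins were run beside each other, 23 of 3723 tested members in 15 genes were higher with hairpin 64 than with hairpin 65, against 0.653% of all cassette exon rows, and 4 were lower, against 1.2%. At an adjusted p of 0.05 or less these counts were 4 and 1, beside 0.0718% of all events, and leaving out single libraries gave 24 to 33 calls in both directions together. The 4 lower calls were 1 without hairpin 64 replicate 3 and 8, 7 and 7 without each hairpin 65 replicate. The 12 genes were chosen on their hairpin 64 values, those of MV4;11 included, so their differences from hairpin 65 are a description. Among them, EXOC1 was higher with hairpin 64 by 43.3 ± 5.94 points, TRERF1 by 44.9 ± 3.26, ACTN4 by 38.6 ± 2.27, ZFYVE21 by 32.6 ± 3.92, NUMB by 31.1 ± 2.63, CADM1 by 28.1 ± 2.68 and LGALS9 by 26.7 ± 1.37 points. Of these, ACTN4 and LGALS9 had an adjusted p under 0.05, at 0.0455 and 0.0376. For DGKH, LRCH4, DOT1L, CD47 and RBCK1 the main row was higher with hairpin 64 in all 3 libraries without a call, by 34.6 ± 9.11, 24.5 ± 6.45, 14.4 ± 3.36, 12.6 ± 2.98 and 11.5 ± 2.76 points. MBNL1 was at 3.72 ± 0.236 RPKM with hairpin 64 and 11.9 ± 1.07 RPKM with hairpin 65 in these libraries (SD, n = 3).

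**Figure D3:**
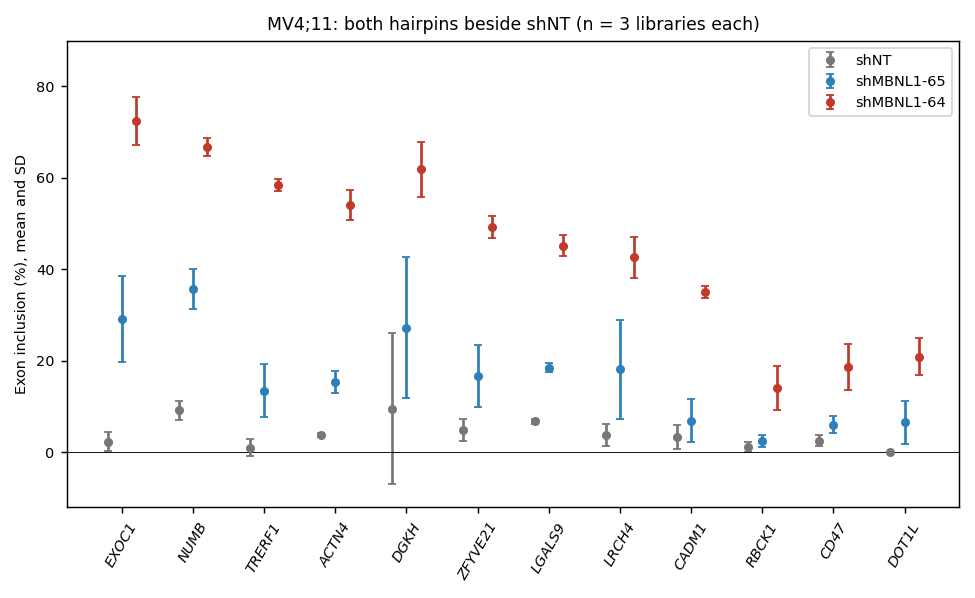
Inclusion in percent in MV4;11 for the 12 genes, with shNT, hairpin 65 and hairpin 64 side by side, where points are means and bars the SD of 3 libraries. For each gene the hairpin 65 mean lies below that of hairpin 64, from 35.6% against 66.7% in NUMB to 2.53% against 14% in RBCK1. The 12 genes were chosen on their hairpin 64 values, so this order is a description.

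Of the 33 members called higher with hairpin 64 in MV4;11, 19 were called higher with hairpin 64 than with hairpin 65, and 8 were also called with hairpin 65 against the shared controls. The 33 were chosen on the hairpin 64 values and on the controls that hairpin 65 shares, so these counts are a description. The median difference from shNT over these 33 members was 30.0 points with hairpin 64, the comparison that chose them, and 6.7 points with hairpin 65. In the other direction, ACER3, an alkaline ceramidase, was lower with hairpin 64, with 0% in both libraries measured against 32.4% and 33.3% with hairpin 65, a fall of 32.8 ± 0.455 points (adjusted p = 0.0467). The ACER3 controls of MV4;11 lay between, at 19.1% and 10.7%.

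Between the lines, both with hairpin 64, 5 members of 3640 were higher in MV4;11 than in the first MOLM13 set, against 1.17% of all cassette exon rows, and 16 were lower, against 1.05%. At an adjusted p of 0.05 or less, 2 were higher and 2 lower, beside 0.381% of all events. Line and sequencing set cannot be told apart in this comparison. The count of 21 in both directions was 13 without MV4;11 replicate 1. The 5 higher calls were 2 without first-set replicate 2 and 11 and 9 without MV4;11 replicates 2 and 3, and the 16 lower calls were 6 and 8 without MV4;11 replicates 1 and 3. ACTN4 was lower in MV4;11 by 21.2 ± 2.00 points (adjusted p = 0.0498) and EXOC1 by 18.9 ± 2.98 points (adjusted p = 0.127), and the EXOC1 call was lost without first-set replicate 2 or 3 or without MV4;11 replicate 1 (unadjusted limma p of 0.0114 to 0.0118). For NUMB and ZFYVE21 the lines differed by -2.64 ± 4.19 and 2.05 ± 7.10 points, neither called. Other members called here were DNAJB6, a co-chaperone, lower by 14.8 ± 0.670 points, and SLK, a kinase, lower by 13.8 ± 2.41 points, while SLC3A2, the heavy chain of amino acid transporters, was higher by 15.6 ± 2.81 points. The shNT libraries of the same sets also differed for SLC3A2, at 11.7% to 23.9% in MV4;11 and 1.09% to 8.20% in MOLM13, and for DNAJB6, at 0% in all 3 MV4;11 libraries and 6.25% to 54.5% in MOLM13. For SLK they overlapped, at 0% to 3.70% and 1.24% to 3.08%.

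Within MOLM13, 8 of 3652 members were higher at day 12 than in the first set with hairpin 64, against 1.25% of all cassette exon rows, and 7 were lower, against 0.741%. Day and sequencing instrument cannot be told apart here, and the count of 15 was 29 without first-set hairpin 64 replicate 1. The 8 higher calls were 5 without first-set replicate 2, and the 7 lower calls were 20 and 16 without first-set replicates 1 and 2 and 3 without any 1 day 12 library. By limma, 0 of the 12 main rows were called in this comparison, and 4 had an unadjusted p under 0.05. NUMB was 13.3 ± 4.09 points higher at day 12 and CADM1 12.1 ± 3.87 points lower, both with an unadjusted limma p above the threshold of 0.01, at 0.0266 and 0.0299. ACTN4 and LGALS9 were 4.20 ± 1.47 and 3.76 ± 0.675 points higher at day 12, under the limit of 10 points. BRF2, a subunit of an RNA polymerase III initiation factor, was the 1 member called at an adjusted p under 0.05, beside 0.391% of all events, higher at day 12 by 13.4 ± 1.29 points (adjusted p = 0.0495), at 17.9% to 21.2% against 4.94% to 8.14%. Its day 12 controls were 5.65%, 10.5% and 15.3%.

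Gene lists were read by their counts beside those of all members. The lists were chosen with earlier results of these data known, and 1 exon can give several rows, so these counts are a description. The list of MBNL and CELF factors and exons altered in myotonic dystrophy had 31 members in 14 genes, and 8 of them, in EXOC1, NUMB and CD47, were called higher in each of the 3 comparisons of hairpin 64, where 0.8%, 0.893% and 1.28% of all tested members were. With hairpin 65, 1 of the 31 was called in MOLM13 and 5 in MV4;11, against 0.353% and 0.378% of all tested members. Its median difference was -0.609, 0.794 and 0.145 points in the first set, MV4;11 and day 12, against 0 over all tested members each time. The list of splicing factors with poison exons, which trigger decay of the mRNA when included, had 35 members in 18 genes, and 0 were called in any of the 5 comparisons by limma, while 3 in each had an unadjusted p under 0.05. The membrane trafficking list had 49 members in 25 genes, with the 3 EXOC1 rows higher with hairpin 64 in each comparison, KLC1 added at day 12, EPN2, an endocytic adaptor, called with hairpin 65 in MOLM13, the 3 EXOC1 rows with hairpin 65 in MV4;11, and DENND1A, a guanine exchange factor for Rab35, lower in the first set and at day 12. Among 53 members in 22 genes for chromatin and MLL complexes, DOT1L rows were the ones called higher with hairpin 64. There was 1 such row in the first set and 2 in each of MV4;11 and day 12. Among 33 members in 13 genes for Wnt and Notch signaling these were the NUMB rows, with TCF12 in MV4;11 and at day 12. The list of myeloid transcription factors and leukemia drivers, with 28 members in 14 genes, had 1 call, MYB at day 12.

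Expression of the genes that hold these exons was not used to choose them. Of the genes with a member called higher, 19, 10, 19, 8 and 30 were expressed well enough to test in the 5 comparisons, in the order used above. DYNC1I2, a dynein intermediate chain, fell in the first set (log2 fold change -0.68 ± 0.12 on the scale of log2 of RPKM plus 1, adjusted p = 0.185), as 1 gene called where 2.42% of all genes were called in either direction. At day 12, 3 genes were called, against 5.52% of all genes, and all 3 were lower: DYNC1I2 (-0.60 ± 0.05), LRCH4 (-0.60 ± 0.05) and FGFR1 (-0.60 ± 0.05), with adjusted p of 5.64e-05, 4.42e-05 and 4.38e-05. This count was 1 without hairpin 64 replicate 3. With hairpin 64 in MV4;11, 0 of 19 were called by limma, beside 6.51% of all genes, while 5 of the 19 had an unadjusted p under 0.05. That count became 4 without shNT replicate 3 and 1 without hairpin 64 replicate 2. With hairpin 65, 0 of 10 genes were called in MOLM13 (3.24% of all genes), with 1 under 0.05 unadjusted, and ARL6IP6 fell in MV4;11 (-0.60 ± 0.16, 3.63% of all genes). Of the 12 genes, LRCH4 was the one called with hairpin 64, but changes under the 1.5-fold limit had an adjusted limma p under 0.05 at day 12. These log2 fold changes were 0.49 for TRERF1, 0.42 for CD47, 0.33 for DGKH, 0.29 for NUMB, 0.28 for DOT1L, 0.15 for EXOC1 and -0.14 for RBCK1, with adjusted p of 0.000176, 0.000118, 0.00170, 0.000958, 0.00431, 0.0197 and 0.0471. In the first set and in MV4;11, the 12 genes had adjusted p above 0.05, or were not tested in the case of DGKH in the first set. The largest of these changes were 0.68 for TRERF1 in the first set and 0.54 for ACTN4 in MV4;11, with adjusted p of 0.459 and 0.0613 in the limma fits. For LGALS9 the log2 fold change was -0.15, 0.22 and -0.06 in the 3 comparisons of hairpin 64, and for ZFYVE21 it was 0.03, 0.21 and -0.07.

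Exon structure and sequence were not used by the rule either, but coding overlap differed with control inclusion. The rows were placed on 20 exons called higher in at least 2 comparisons, 26 called in 1, and 1835 members never called higher, beside 4649 exons partly included in the controls and 4205 nearly always included. The exons called at least 2 times had a median length of 89.5 bases, against 103 for members never called. A length that is a multiple of 3, which keeps the reading frame, was found in 11 of 20 (55%), against 39.5% of members never called and 40.3% of all exons. Overlap with annotated coding sequence was found in 18 of 20 (90%), against 55.6% and 80.0%, and both properties in 11 of 20 (55%), against 25.9% and 33.6%. For the 26 exons called in 1 comparison the shares were 57.7% for length, 76.9% for coding overlap and 50% for both. Coding overlap was 74.9% in exons partly included in the controls and 96.3% in those nearly always included. The EXOC1, NUMB, TRERF1, ZFYVE21, LGALS9 and CADM1 exons are among those with both. The ACTN4 (86 bases), DGKH (131 bases) and DOT1L (646 bases) exons and the CD47 exon of 25 bases are not multiples of 3.

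These 4 motifs were searched on the transcribed strand, with overlaps counted. At least 1 was found within 250 bases upstream of 19 of the 20 exons (95%), against 90.6% of members never called and 91.0% of all exons, and within 250 bases downstream of all 20, against 90.8% and 91.5%. Inside the exon a match was found in 65% of the 20, against 69.5% and 72.5%. At least 6 matches upstream were found for 4 of the 20 exons (20%), those of LGALS9 (11), SSBP3 (11), ZFYVE21 (9) and DOT1L (18). The share was 12.6% among members never called and 26.9% among the 26 exons called in 1 comparison. In the nearest 100 bases upstream, 6 or more were found for 3 of the 20 (15%), against 0.545% of members never called and 0.83% of all exons, and for 0 of the 26 exons called in 1 comparison. Downstream, 6 or more matches within 250 bases were found for 4 of the 20 exons (20%) and 12.6% of members never called, the same shares as upstream. In the nearest 100 bases downstream, 6 or more were found for 0 of the 20 exons and 2 of the 26, beside 0.654% of members never called. The upstream flanks differed in base composition as well, with a median of 41.4% GC over 250 bases for the 20 exons and 39.2% for members never called, and 46% and 38% over 100 bases. The 20 exons include neighbours in one gene, and a match describes letters in the window and not a bound site.

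**Figure D4:**
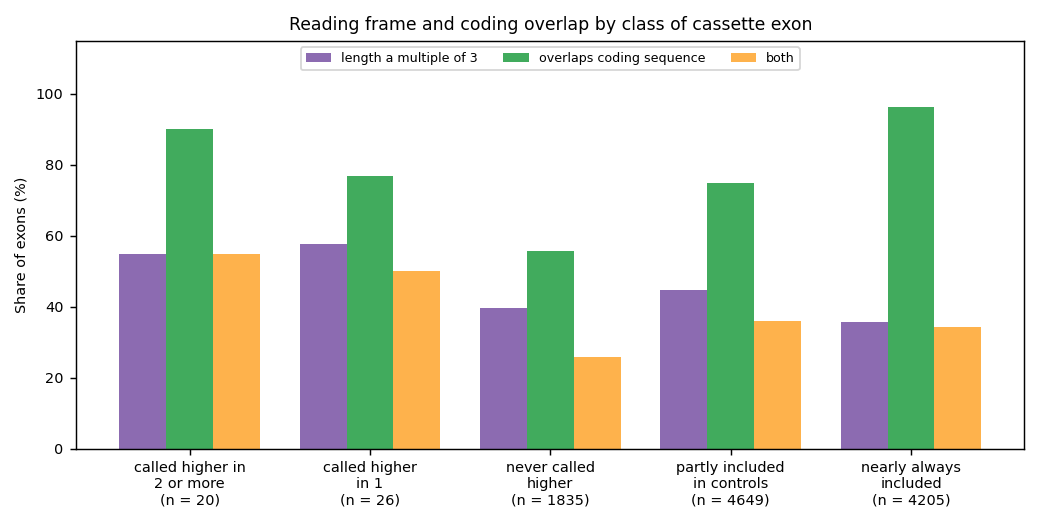
Structure of exons by class, with the percentage of exons on the vertical axis and bars for a length that is a multiple of 3, for overlap with coding sequence and for both. The 20 exons called at least 2 times stand at 55%, 90% and 55%, against 39.5%, 55.6% and 25.9% for members never called. Exons called in 1 comparison stand at 57.7%, 76.9% and 50%.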

How the data were processed

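RNA-seq of 28 libraries of MOLM13 and MV4;11 cells was used as deposited. The authors aligned paired-end stranded reads with STAR to GRCh37 (hg19) and computed splicing and expression with AltAnalyze and its MultiPath-PSI method. The deposited splicing values are fractions (percent spliced-in, 0 to 1) of junction reads without read numbers, so the depth behind an event is unknown, and the deposited expression values are RPKM per gene. Of 56436 junction ends, 97.7% lay on annotated GRCh37 exon edges.

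Inclusion was the fraction where the examined junction in the row was shorter than the background junction, and 1 minus it otherwise. Libraries were grouped by their labels. The members, gene lists and comparisons were chosen with earlier results of these data known. Events with values in over 50% of the libraries on either side were tested with limma 3.58.1 (R 4.3.3), on the 2 groups compared. A call needed an unadjusted p of at most 0.01 and a difference over 0.1 of inclusion (10 percentage points), with Benjamini-Hochberg adjusted p over all events tested. Differences are given with standard errors. Genes were tested with limma on log2(RPKM + 1) where the mean RPKM was at least 1 in either group, and called at the same p and a change of at least 1.5-fold. The fits were checked on made-up data with known answers.

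Named were up to 12 genes called higher in all 3 comparisons of hairpin 64 without overlap, the members called in all 5, the 5 largest called with hairpin 64 in 1 line only or in either direction among knockdown libraries, the 5 largest called lower, the 3 largest in each gene list, their host genes whose expression was called, and MBNL1. ANKLE2, AP1S2, CA5B, DDX60L and the upstream FGFR1 row were added after their values were seen. For 1 member called lower and 1 gene list, values are not reported here. In the first set, deviations from the group means of same-numbered libraries correlated (r = 0.168, 0.105 and 0.300 for numbers 1, 2 and 3 across events, against at most 0.103, 0.117 and -0.166 with a library of another number), so numbers were taken to pair those libraries. Number 2 correlated slightly more with another number than with its own, and the labels state no pairing. In the other comparisons r was at most 0.0197.

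Exons were placed from both junctions of a row or from the annotation, and 4-base motifs were counted in the exon and 250 bases on each side with pysam 0.24.0. Tables were handled with Python 3.11.15, pandas 2.3.3 and numpy 2.4.6. Alternatives covered the scale of the test, the filter, the spread, the threshold, the choice of members, the block and each library left out.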

Additional observations from a re-analysis of the deposited data

Results flagged for a closer look

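LGALS9 inclusion was 26.6% in hairpin 65 replicate 1 of MOLM13, far from the other 3 libraries of the group (14.3% to 15.6%), by a gap test on 11 rows with 4 values, in which chance marks about 1 in 20 groups. In MV4;11, the difference between hairpin 64 and hairpin 65, tested directly with limma, had an adjusted p under 0.05 for ACER3 (-32.8 points), for both ACTN4 rows (26.7 and 38.6 points) and for both LGALS9 rows (20.2 and 26.7 points). The difference between MV4;11 and the first MOLM13 set, both with hairpin 64, did so for DNAJB6 (-14.8 points), ACTN4 (-21.2 points), SLC25A29 (10.7 points) and AC074286.1 (16.7 points). The AC074286.1 row had 2 hairpin 64 values in each line, and its shNT values were 22.2% in the 1 MV4;11 library measured and 0% in both MOLM13 libraries measured. Between day 12 and the first set with hairpin 64, it did so for BRF2 (13.4 points).

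Among 7038 cassette exon rows left out for having fewer than 8 control values, 1309 had a value in all 3 hairpin 64 libraries and at least 2 shNT libraries of day 12, and 2 of them rose by more than 50 points from a control mean of at most 10%, without overlap. Both belong to a 54-base exon of MBNL2, a paralog of MBNL1, at chr13:98009050-98009103 in GRCh37, which had 7 control values. The upstream junction was 73.9%, 63.0% and 80.0% with hairpin 64 against 0%, 0% and 7.41% with shNT, a difference of 69.8 points. The downstream junction was 66.7%, 52.4% and 66.7% against 0%, 0% and 7.41%, a difference of 59.4 points. In MV4;11 the upstream junction was 66.7%, 90.9% and 53.8% with hairpin 64, with a value in 1 shNT library (0%). Of 158 such rows in the first set and 678 in MV4;11, 0 did so.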

How the results depend on the processing

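The 52 calls of the main rows of the 12 genes kept their direction in all 569 refits. These rows were chosen because no hairpin 64 library overlapped its controls, so the direction was largely fixed by that choice and is a description. In 87 refits the call was lost, 51 of them among 313 that left out 1 library. The fit of all 28 libraries gave 56 (hairpin 64, first set), 26 (hairpin 65, MOLM13), 41 (hairpin 64 against 65), 46 (MV4;11 against MOLM13) and 42 (day 12 against first set) calls. An adjusted p of 0.05 gave 10, 0, 17, 0 and 30 members higher in the 5 comparisons with shNT and 5, 4 and 1 calls among knockdown libraries. Members with a mean control inclusion of 5% or less gave 15, 4, 15, 3 and 21, then 11, 9 and 2. Counted as junction clusters, the MV4;11 hairpin 64 count was 21. Leaving out 1 library gave 14 to 37, 7 to 17, 24 to 35, 10 to 20 and 40 to 46 members higher, then 24 to 33, 13 to 24 and 12 to 29 calls. Host genes called numbered 0 at adjusted p and 2 with the replicate block in the first set and 5 at day 12 with a pseudocount of 0.1, and 1 to 1, 0 to 4 and 1 to 3 without single libraries. The replicate block gave 24 in the first set, and where numbers share only a name it gave 29 (MV4;11, hairpin 64), 9 (hairpin 65), 38 (day 12), 18, 14 and 8. No paired analysis was possible for hairpin 65 in MOLM13 because its groups share only 1 replicate number. The cause of these changes was not tested. The missing read numbers limit the precision of every inclusion value. Setting both first-set libraries numbered 3 aside, which gave 29, was chosen after seeing the data. With 100 bases in place of 250, a motif lay upstream of 80% of the 20 exons and 65.0% of members never called.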
